A study of Coregonus lavaretus with 13 samples.

Results

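A set of 51 putative lncRNAs of whitefish liver was listed by the study as changed 1 day after MC-LR, was listed at neither later time, and was lower in the exposed livers. They were chosen by 2 readouts of the deposited tables: the contig had to be in the table of day 1 and absent from the tables of days 6 and 9, and its mean raw count over the 3 MC-LR livers of day 1 had to lie below the mean over the 4 PBS livers. The 51 members were 51 of the 552 contigs that were lower among the 1100 listed on day 1, and of 4729 contigs listed on any day. Of the 395 contigs listed on day 1 alone, the other 344 were higher in the MC-LR livers. Since the direction and the listing chose the members in these same fish, the differences between MC-LR and PBS livers below are a description and were not tested.

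The livers came from juvenile whitefish (Coregonus lavaretus, Rutki-strain). The 3 MC-LR fish of day 1 were injected intraperitoneally with 100 μg of the toxin per kg of body mass in PBS, and their livers were taken 1 day later. The 4 PBS fish received the solvent alone and were sampled on the same day. The 3 MC-LR fish of day 6 and the 3 of day 9, given the same dose and, before day 9, a repeat of it, were set by the study against the same 4 PBS fish and enter here only through the tables that define the members and through contigs related to them. All livers of a group are separate fish of a single strain, the groups were kept in separate tanks, and the tank and the toxin cannot be told apart. For days 6 and 9 the PBS fish were those of day 1, so the day of sampling cannot be told apart from the toxin either. The absence of a contig from the tables of days 6 and 9 says that it was not listed there as changed. Its counts on those days were not analysed here, so "day 1 only" refers to the listing and not to a measured recovery.

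MC-LR (microcystin-LR) is a cyclic peptide toxin of cyanobacteria that hepatocytes take up through organic anion transporters, and it inhibits the serine/threonine protein phosphatases PP1 and PP2A. Long non-coding RNAs are transcripts without a recognised protein-coding frame. Some act in the nucleus on transcription or chromatin, others bind proteins or microRNAs, and for most no role is known. Here an lncRNA is a contig that the study assembled de novo from poly(A)-selected liver RNA and that had no match among proteins, known non-coding RNA families or mRNAs. A contig ID gives the Trinity cluster (DN), component (c), gene (g) and isoform (i). None of the 51 IDs matched the RefSeq gene table of the species, but IDs of a de novo assembly could not match it, and no sequence was searched here. The members therefore carry no gene name, position or function here, and they are ordered below by their level and by how low they were. Levels are normalized counts, that is reads counted on a contig divided by the size factor of the library, and they do not correct for contig length. Levels of different contigs are therefore not compared as amounts of RNA. In whole liver, fewer cells of a type and less RNA per cell cannot be told apart, and with no gene names no marker of a cell type could be looked up.

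Most members had few reads in MC-LR livers, and 4 of them stayed at 20 or more normalized counts there. The mean of a member had a median of 2.22 normalized counts in MC-LR livers, with a range from 0 to 83.3, against a median of 43.4 and a range from 13.4 to 323 in PBS livers. Every member had reads in every PBS liver, while 12 members had no read in any MC-LR liver. Summed over the 51 members, MC-LR livers 1 to 3 held 298, 480 and 386 normalized counts, against 3312, 4461, 3553 and 3456 in PBS livers 1 to 4. The sum averaged 388 ± 91.0 (SD, n = 3) in MC-LR livers and 3695 ± 520 (SD, n = 4) in PBS livers, 9.53-fold lower with MC-LR. The sums of the groups did not overlap. The members were chosen as lower in these same fish, which favours such a gap, so nothing is read from it.

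**Figure D1:**
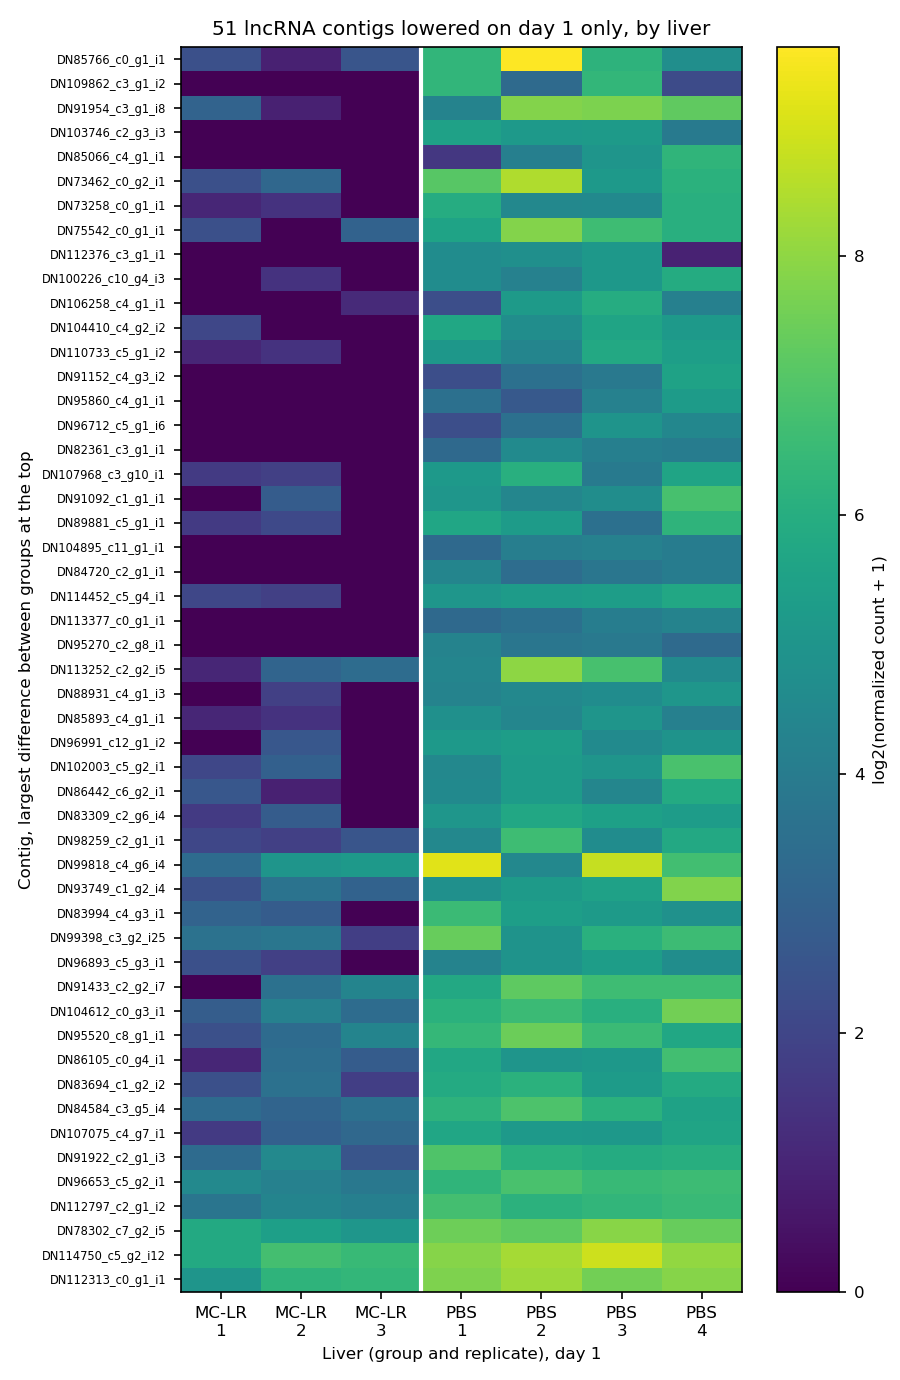
Heat map of log2(normalized count + 1) of the 51 members (lines, ordered by the difference between the group means) in the 3 MC-LR and 4 PBS livers of day 1 (columns). The dark cells are the members without reads, of which MC-LR liver 3 had 30, MC-LR liver 1 had 18, MC-LR liver 2 had 15 and the PBS livers none.

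In 50 of the 51 members every MC-LR liver lay below every PBS liver, where 49.6% of all contigs listed on day 1 had this order. At least a 4-fold lower mean in MC-LR livers was found in 49 members, against 48.4% of all listed contigs. Both shares over the listed contigs are near the share of contigs that were lower at all, and the rule used this contrast, so nothing is read from the members' counts. The log2 ratio of the group means, with 1 normalized count added to each mean, had a median of -3.85 over the members and of -1.48 over all listed contigs, which hold contigs of both directions. Counted over the 32 members with more than 3 reads in the MC-LR livers, the fold ran from 3.72 to 73.6, with a median of 11.4. It was under 4 in 2 of them, from 4 to under 8 in 5, from 8 to under 16 in 14, from 16 to under 32 in 8, and 32 or more in 3.

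The 6 members with the highest PBS mean held 56.8% of the MC-LR sum and 38.4% of the PBS sum, and they differed in how even they were among the control fish. The 3 least lowered members, all among these 6, made up 48.8% and 20.0% of the sums. TRINITY_DN114750_c5_g2_i12 had the highest control mean, with 56.0, 106 and 88.1 normalized counts in MC-LR livers 1 to 3 and 234, 318, 471 and 267 in PBS livers 1 to 4. Its means were 83.3 ± 25.2 (SD, n = 3) with MC-LR and 323 ± 105 (SD, n = 4) with PBS, 3.88-fold lower. This contig stayed well detected in every exposed liver, and the highest MC-LR liver held less than any PBS liver. TRINITY_DN112313_c0_g1_i1 had 31.1, 74.6 and 82.1 normalized counts in MC-LR livers, against 215, 293, 191 and 234 in PBS livers. Its mean was 3.72-fold lower with MC-LR, the smallest fold of the 51. TRINITY_DN78302_c7_g2_i5 had 56.0, 41.9 and 32.6 normalized counts in MC-LR livers and 181, 151, 238 and 165 in PBS livers, 4.22-fold lower. The highest control fish held 2.01 times the lowest in TRINITY_DN114750_c5_g2_i12, 1.53 times in TRINITY_DN112313_c0_g1_i1 and 1.57 times in TRINITY_DN78302_c7_g2_i5. In these 3 contigs the groups did not overlap, in the direction that chose the members.

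The other 3 abundant members differed widely among the control fish. TRINITY_DN99818_c4_g6_i4 had 9.34, 31.0 and 35.0 normalized counts in MC-LR livers, against 579, 21.5, 440 and 103 in PBS livers. PBS liver 2 lay below MC-LR livers 2 and 3, which makes this the only member whose groups overlapped. Its mean was 25.1 ± 13.8 (SD, n = 3) with MC-LR and 286 ± 266 (SD, n = 4) with PBS, so the SD of the controls was nearly as large as their mean, and the log2 ratio of -3.46 became -2.86 without PBS liver 1. TRINITY_DN85766_c0_g1_i1 had 4.15, 0.839 and 4.83 normalized counts in MC-LR livers and 79.1, 784, 73.5 and 26.1 in PBS livers. Its 73.6-fold lower mean, the largest fold of a member with more than 3 reads in the exposed livers, rested on PBS liver 2: the log2 ratio was -5.82 with all fish and -3.83 without that liver. TRINITY_DN91954_c3_g1_i8 had 7.26, 0.839 and 0 normalized counts in MC-LR livers, against 18.6, 225, 211 and 152 in PBS livers. Here PBS liver 1 was the low one, and MC-LR liver 1 the high one. The log2 ratio of -5.37 became -6.75 without that MC-LR liver and -4.92 without MC-LR liver 3.

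**Figure D2:**
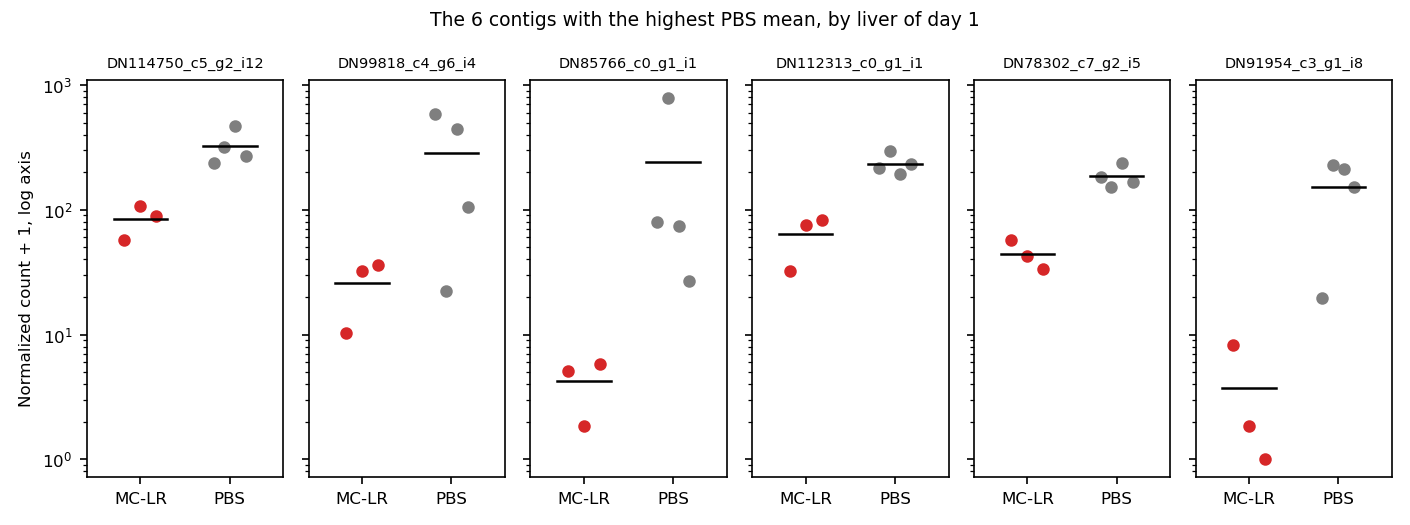
Normalized count + 1 (log axis) of the 6 members with the highest PBS mean, with MC-LR livers (red, n = 3) left of PBS livers (grey, n = 4) and a line at each group's mean. The groups overlapped in TRINITY_DN99818_c4_g6_i4 alone, and in TRINITY_DN85766_c0_g1_i1 PBS liver 2 stood at 784 normalized counts against 26.1 to 79.1 in the other PBS livers.

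The 12 members without a read in any MC-LR liver had low control levels, with PBS means from 13.4 to 43.5 normalized counts and a median of 17.1. A count of 0 allows up to 3 reads over the 3 MC-LR livers, or 1.01 normalized counts per liver. Against that limit, with no error on the PBS mean, the 12 were at least 13.4-fold to at least 43.3-fold lower in MC-LR livers. The lower ends of the exact 95% intervals, which take in the reads of both groups, ran from 10.4-fold to 33.5-fold. Both measures cover counting error only. The contig with the highest control mean among them, TRINITY_DN109862_c3_g1_i2, had 80.1, 8.95, 81.3 and 3.60 normalized counts in PBS livers. With MC-LR it was at least 43.3-fold lower by the limit of 3 reads. PBS livers 1 and 3 were high and PBS livers 2 and 4 low in this contig. TRINITY_DN103746_c2_g3_i3 was more even, with 44.9, 34.9, 37.2 and 14.4 normalized counts in PBS livers, and at least 32.7-fold lower by the same limit.

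TRINITY_DN85066_c4_g1_i1, also at 0 in all 3 MC-LR livers, had 1.95, 17.0, 31.4 and 78.2 normalized counts in PBS livers. PBS liver 1 alone was thus close to the limit of detection while PBS liver 4 was well above it. TRINITY_DN112376_c3_g1_i1 had 24.4, 26.8, 34.3 and 0.899 in PBS livers, the last of these a single read. TRINITY_DN91152_c4_g3_i2 had 3.91, 10.7, 13.7 and 45.8, and TRINITY_DN95860_c4_g1_i1 had 10.7, 5.37, 17.6 and 37.8. In both of them PBS liver 4 was the highest control. Without PBS liver 4 the log2 ratio was -4.15 in TRINITY_DN85066_c4_g1_i1, -3.39 in TRINITY_DN91152_c4_g3_i2 and -3.61 in TRINITY_DN95860_c4_g1_i1, against -5.05, -4.29 and -4.24 with all fish. The lowest PBS liver of TRINITY_DN112376_c3_g1_i1 and of TRINITY_DN85066_c4_g1_i1 lay so near 0 that the separation of the groups in these contigs rested on 1 or 2 reads.

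A further 7 members had 1 to 3 reads over the 3 MC-LR livers, and PBS means from 24.1 to 43.0 normalized counts. The ratio of the group means lay between 26.6-fold and 73.6-fold lower with MC-LR, and the lower ends of the exact 95% counting intervals of these folds lay at 7.90 or more. In all, 18 members had a mean under 1 normalized count in MC-LR livers. Another 16 lay from 1 to under 5, 13 from 5 to under 20, and 4 at 20 or more.

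At the other end, 4 members had the smallest differences: TRINITY_DN112313_c0_g1_i1, TRINITY_DN114750_c5_g2_i12 and TRINITY_DN78302_c7_g2_i5, described above, and TRINITY_DN112797_c2_g1_i2. This last contig had 12.4, 19.3 and 16.9 normalized counts in MC-LR livers and 107, 70.7, 79.4 and 90.8 in PBS livers, 5.37-fold lower. It was among the most even members, with means of 16.2 ± 3.47 (SD, n = 3) and 87.1 ± 15.9 (SD, n = 4). The 3 least lowered members alone made up 48.8% of the MC-LR sum and 20.0% of the PBS sum. A larger share in the exposed livers follows from choosing the least lowered, so nothing is read from it.

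The rule has a threshold at equal raw group means, and no contig lay near it. The paper states a cut-off that corresponds to a 4-fold change. Some contigs listed on day 1 lay inside it by the group means used here. TRINITY_DN84852_c3_g1_i1, for one, had means of 152 normalized counts in MC-LR livers and 397 in PBS livers. The authors' own fold changes and p-values were not used, so the cut-off behind the listing was not checked here. Since the listing holds contigs called changed, the gap at the threshold is not read as a result about the members. Just inside stood TRINITY_DN112313_c0_g1_i1, with raw means of 62.3 in MC-LR livers and 251 in PBS livers, a ratio of 0.249, and TRINITY_DN114750_c5_g2_i12, with raw means of 84.3 and 344 and a ratio of 0.246. Just outside, on the higher side, stood TRINITY_DN101051_c2_g4_i1 with raw means of 483 in MC-LR livers and 191 in PBS livers, a ratio of 2.53, and TRINITY_DN113344_c11_g3_i3 with 1254 and 445 and a ratio of 2.82. No contig listed on day 1 alone had a ratio between 0.249 and 2.53.

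The members also varied among the control fish. The highest PBS liver held a median of 3.10 times the lowest, from 1.48 times in the most even member to 40.0 times in the least even one. The median was 2.95 over contigs lowered on days 1 and 6 but not listed on day 9. It was 3.42 over those lowered on days 1 and 9 but not listed on day 6, and 2.54 over those lowered on all 3 days. Contigs without reads in a PBS liver were left out of these medians. Among the members the highest PBS liver held less than 2 times the lowest in 12 and more than 10 times in 10. Of these 10, the highest control was PBS liver 2 in 4 members, PBS liver 3 in 3, PBS liver 4 in 2 and PBS liver 1 in 1, so the highest control was not always the same fish. Over all 51 members PBS liver 1 was the highest control in 10, PBS liver 2 in 16, PBS liver 3 in 10 and PBS liver 4 in 15. In the same order of livers these were 19.6%, 31.4%, 19.6% and 29.4% of the members. The shares were 21.0%, 21.8%, 29.1% and 28.1% over the contigs lowered on day 1 and also listed later. PBS liver 1 was the lowest control in 20 members, the most of the 4 fish.

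The exposed fish also differed. No reads were found in MC-LR liver 3 for 30 of the 51 members, in MC-LR liver 1 for 18 and in MC-LR liver 2 for 15. MC-LR liver 3 had the smallest size factor of the 3 (0.83, against 0.964 and 1.19 for MC-LR livers 1 and 2), and the part of depth in these counts was not tested. The contigs lowered on day 1 and also listed later had the same order of fish: 50.7% of these 501 contigs were without reads in MC-LR liver 3, 27.5% in MC-LR liver 1 and 17.8% in MC-LR liver 2, where the members had 58.8%, 35.3% and 29.4%. Among the 39 members with reads in any exposed liver, MC-LR liver 2 was the highest in 20, MC-LR liver 3 in 11 and MC-LR liver 1 in 8.

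The 4 members with the largest spread among exposed livers, on the log2 scale, each had at least 1 exposed liver without reads. TRINITY_DN91433_c2_g2_i7 had 0, 10.9 and 19.3 normalized counts in MC-LR livers, against 54.7, 148, 98.0 and 98.9 in PBS livers. TRINITY_DN73462_c0_g2_i1 had 4.15, 8.39 and 0 in MC-LR livers, against 139, 354, 35.3 and 69.2 in PBS livers. TRINITY_DN83994_c4_g3_i1 had 7.26, 5.87 and 0 in MC-LR livers, against 92.8, 41.1, 37.2 and 27.9 in PBS livers. In these 3 contigs 1 exposed liver had no reads while the others did. The log2 ratio was -3.19 for TRINITY_DN91433_c2_g2_i7, -2.65 without MC-LR liver 1 and -3.97 without MC-LR liver 3. It was -4.86 for TRINITY_DN73462_c0_g2_i1, -5.61 without MC-LR liver 2 and -3.99 without PBS liver 2. TRINITY_DN91092_c1_g1_i1 was found in MC-LR liver 2 alone, at 5.87 normalized counts, and had 32.2, 20.6, 25.5 and 113 in PBS livers. Without MC-LR liver 2 its log2 ratio of -4.05 became -5.61, and without PBS liver 4 it was -3.20. Leaving out 1 liver moved the ratio by more than 1.5 times in 23 of the 51 members. Over such runs of all 51 members, the log2 ratio nearest to 0 was -1.56, in TRINITY_DN112313_c0_g1_i1, which is not among the 23.

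Each of the 51 members came from a different Trinity cluster, so none was assembled as an isoform of another. In the tables, 3 of them had another contig of the same Trinity gene, and in all 3 that contig was also lower with MC-LR, on the same or on a later day. Normalized counts of the later tables use other size factors, so the PBS values of 1 contig differ between tables, and each day is read against its own PBS values. TRINITY_DN113252_c2_g2_i5 had 1.04, 7.55 and 9.66 normalized counts in MC-LR livers of day 1 and 19.5, 250, 111 and 23.4 in PBS livers, 16.6-fold lower. Its log2 ratio of -3.85 became -2.88 without PBS liver 2. Its partner TRINITY_DN113252_c2_g2_i2 was listed on all 3 days. The partner had 1.04, 0.839 and 0 normalized counts in MC-LR livers of day 1, against 28.3, 301, 118 and 12.6 in PBS livers. On day 6 it had 3.39, 1.87 and 0.910 in MC-LR livers, against 31.2, 334, 130 and 13.7 in PBS livers. On day 9 it had 12.1, 0 and 5.83, against 34.7, 376, 146 and 15.2. Both contigs were highest in PBS liver 2 and next in PBS liver 3. In every MC-LR liver of days 6 and 9 the partner lay below each of the PBS fish, which were of day 1. In the table of day 9 its highest MC-LR liver, at 12.1, lay near PBS liver 4, at 15.2.

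TRINITY_DN85766_c0_g1_i1, described above, had the partner TRINITY_DN85766_c0_g1_i3, listed on day 6 alone. The partner had 5.93, 4.68 and 2.73 normalized counts in MC-LR livers of day 6, against 47.4, 487, 17.3 and 8.80 in PBS livers. The order of the 4 PBS livers was the same in both contigs, with PBS liver 2 far above the others and PBS liver 4 the lowest. TRINITY_DN100226_c10_g4_i3 had 0, 1.68 and 0 normalized counts in MC-LR livers of day 1 and 24.4, 17.9, 34.3 and 59.3 in PBS livers. It rests on 2 reads in the exposed fish. Its log2 ratio of -4.49 became -5.13 without MC-LR liver 2 and -4.09 without PBS liver 4. Its partner TRINITY_DN100226_c10_g4_i2, listed on day 6, had 11.0, 18.7 and 6.37 in MC-LR livers of that day and 59.2, 58.7, 39.0 and 60.6 in PBS livers, 4.52-fold lower. For these Trinity genes the listing on day 1 only thus held for 1 contig and not for the gene. Contigs of a Trinity gene can share sequence and reads, so such pairs are not independent.

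**Figure D3:**
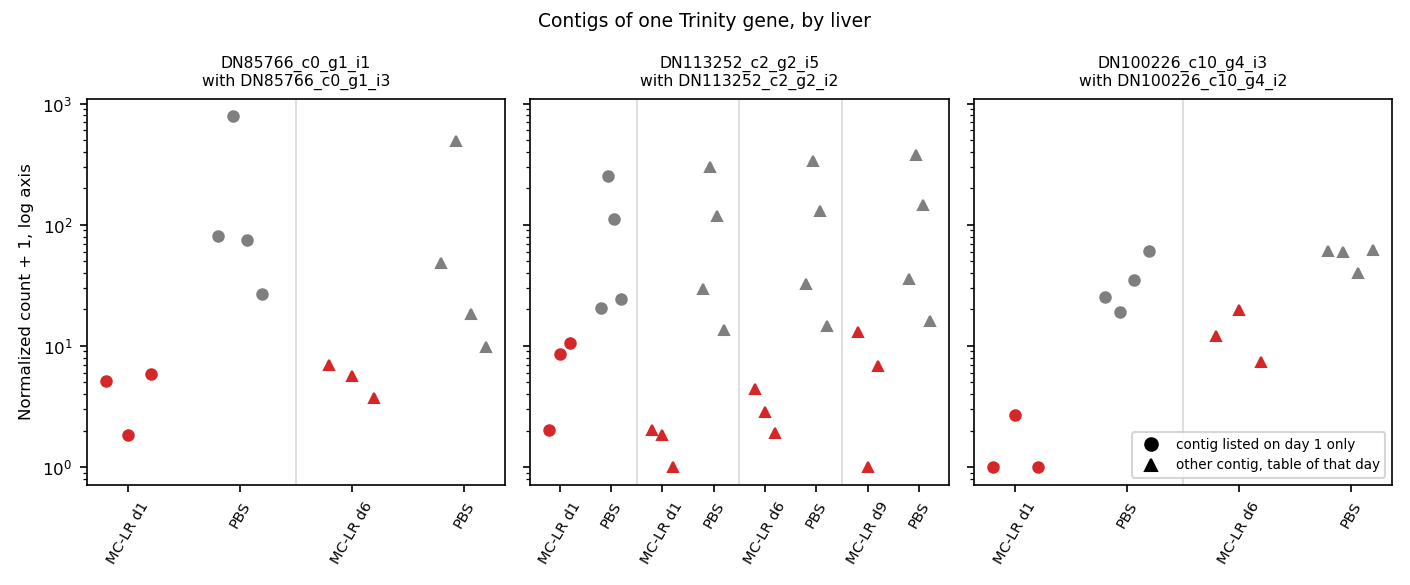
Normalized count + 1 (log axis) of the 3 members that share a Trinity gene with another listed contig (circles, day 1) and of that contig (triangles, on each day of its listing), with MC-LR livers in red (n = 3) left of PBS livers in grey (n = 4). The partner of TRINITY_DN113252_c2_g2_i5 held at most 12.1 normalized counts in any MC-LR liver of days 1, 6 and 9. In the table of day 9 it held 34.7, 376, 146 and 15.2 in PBS livers 1 to 4.

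The members were set beside the other contigs lowered on day 1, by the later days of their listing. These differences were not tested, since all lists were chosen in the same fish and share the PBS controls. The median mean in MC-LR livers of day 1 was 2.22 normalized counts for the members, 3.61 for the 140 contigs that were lower on day 1 and again on day 6 but had no entry for day 9, 1.48 for the 18 of days 1 and 9 without day 6, and 4.81 for the 342 lowered on all 3 days. The median mean in PBS livers was 43.4, 76.6, 39.1 and 94.8 in the same order of lists. The members thus lay below the contigs of days 1 and 6 and those of all 3 days at the median, and close to those of days 1 and 9. These levels are not corrected for contig length and do not stand for amounts of RNA. Contigs with few reads or uneven controls are also harder to list again against the same PBS fish. The part of this in the levels and in the spread among PBS livers was not tested. The median log2 ratio was -3.85, -4.03, -4.06 and -4.04. No reads in any MC-LR liver of day 1 were found for 23.5% of the members, 16.4% of the contigs of days 1 and 6, 33.3% of those of days 1 and 9, and 9.65% of those of all 3 days. The highest PBS liver held more than 10 times the lowest in 19.6%, 9.29%, 16.7% and 6.14% of these lists. The share was 7.39% over the 501 contigs lowered on day 1 and also listed later, and 21.5% over all contigs listed on day 1. The whole table also holds raised contigs with few reads in controls, and a lowest PBS liver without reads counted as past 10 times. Its share is therefore not a like reference for the members, which had reads in every PBS liver. The median coefficient of variation in PBS livers was 0.518, 0.447, 0.543 and 0.400. It was 0.413 over the contigs lowered on day 1 and also listed later, and 0.494 over all listed contigs.

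**Figure D4:**
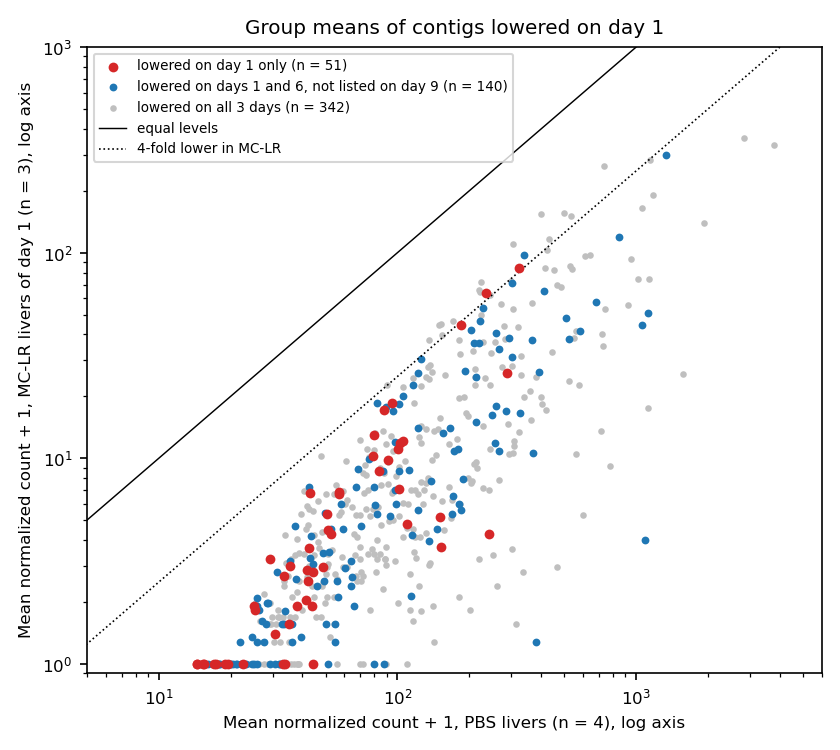
Mean normalized count + 1 in MC-LR livers of day 1 (n = 3) against that in PBS livers (n = 4), both on log axes, for the 51 members (red), the 140 contigs lowered on days 1 and 6 (blue) and the 342 lowered on all 3 days (grey), with lines at equal levels and at a 4-fold lower level. The members lie among the other lists, toward the left: their highest PBS mean was 323, and 2 of them lie above the 4-fold line.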

How the data were processed

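Liver RNA of 13 fish was sequenced from stranded poly(A) libraries, and 7 of these fish, 3 MC-LR and 4 PBS of day 1, carry the values given here. The authors trimmed reads (Trimmomatic 0.36), assembled them with Trinity, removed redundant and low contigs (CD-HIT, RSEM), kept contigs without coding potential or homology, and counted reads per contig with SAMtools, without regard to strand as far as described. These raw counts were deposited for the listed contigs only, and similar contigs may share reads. The signal column is the authors' base mean, a mean over 7 fish of counts divided by their DESeq2 size factors. The tables also hold the authors' fold changes, errors, test statistics and p-values, which were not used. No count column belonged to another sample.

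The size factors were obtained by least squares from the base means and raw counts (the base means computed back from them differed by a fraction of 6e-15 or less), and counts were divided by them (Python 3.11.15, numpy 2.4.6, pandas 2.3.3, scipy 1.17.1, matplotlib 3.10.9). These steps were run on simulated counts with known size factors, which checks the code and not the values given here. Log2 ratios are of group means with 1 added. A group without reads was given a floor of 3 reads over the group, and intervals are exact and cover counting error only. No test between groups was run, since members were chosen on these same values. Dixon's criterion was used only to mark PBS livers that stood apart. The members and lists were chosen with earlier results of these data known. Listed contigs summed to 155677 to 231470 reads in MC-LR fish and 109901 to 128767 in PBS fish of day 1, a part of each library and not its depth. Library totals of clean reads were used only as an alternative scaling. TMM (edgeR 4.0.16 in R 4.3.3) and median-of-ratios factors of the listed contigs, other pseudocounts, a base mean of at least 10 and leaving out each liver were the other alternatives.

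Named members follow a fixed rule: the 6 highest in PBS, the 6 with the largest and the 4 with the smallest difference, 6 without MC-LR reads, those sharing a Trinity gene, those whose groups overlap, the 4 most variable among MC-LR livers, and those next to the rule's threshold. Others named below were chosen after their values were seen.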

Additional observations from a re-analysis of the deposited data

Results flagged for a closer look

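In 5 of the 51 members 1 PBS liver stood apart from the other 3 by Dixon's criterion for 4 values, which sets apart about 5% of groups of 4 by chance, and no liver did so in the summed counts of the members. In all 5 that liver was the highest. The members were chosen for a high PBS mean, which favours a single high PBS liver, so the 5% does not hold for them and the number is a description. TRINITY_DN85766_c0_g1_i1 had 784 normalized counts in PBS liver 2, against 79.1, 73.5 and 26.1 in the others. Its log2 ratio of MC-LR over PBS without that liver was -3.83. PBS liver 4 stood apart in 3 members. TRINITY_DN93749_c1_g2_i4 had 224 there, against 27.3, 36.7 and 44.1, and its log2 ratio of -3.27 became -2.09 without it. TRINITY_DN91092_c1_g1_i1 had 113 there, against 32.2, 20.6 and 25.5. TRINITY_DN102003_c5_g2_i1 had 116 there, against 21.5, 37.6 and 31.4. TRINITY_DN91922_c2_g1_i3 had 125 in PBS liver 1, against 68.0, 58.8 and 63.8. Without the liver that stood apart the log2 ratios of the 5 ranged from -3.83 to -2.09.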

How the results depend on the processing

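Against the recovered size factors, the log2 ratios of all listed contigs moved by a median of -0.26 with clean reads, 0.88 with TMM of the listed contigs and 0.48 with their median-of-ratios factors. These last scalings take most contigs as unchanged although the listed ones were chosen as changed. The median log2 ratio of the members, -3.85, was -3.10 with TMM, -3.41 with median-of-ratios factors and -2.61 with a pseudocount of 5. Leaving out 1 liver gave -4.01 to -3.61. With TMM the log2 ratio nearest to 0 of any single member was -0.886. The summed counts, MC-LR over PBS, stood at 0.105, at 0.212 with TMM and 0.154 with median-of-ratios factors, and at 0.0925 to 0.117 without 1 liver. MC-LR liver 1 was the highest exposed liver in 8 members and in 4 with clean reads, and MC-LR liver 3 in 11 and in 5 with raw counts, so the order of these livers depends on the scaling. Another listed contig of the same Trinity cluster, in place of the same gene, was found for 8 members in place of 3. The count of 50 members without overlap was 48 to 51 over the scalings and without 1 liver. In the same runs the count of 49 at least 4-fold lower was 43 to 51. Neither was recounted with a base mean of at least 10 or with a pseudocount of 0.5 or 5. The rule applied to rescaled in place of raw counts gave 51 members again. The listing left no contig near equal means, so this number could hardly change. Of 190 alternatives for the 19 named members, 1 moved a log2 ratio by more than the larger SD of the groups: TRINITY_DN103746_c2_g3_i3, without MC-LR reads, with a pseudocount of 0.5. This count does not measure stability, since the SD is large where single fish differ. TRINITY_DN85766_c0_g1_i1, with an SD of 2.05 in PBS livers, went from -5.82 to -3.83 without PBS liver 2 and was not counted. Leaving out 1 liver moved 23 of the 51 members by more than 1.5 times. No paired analysis was possible, because the replicate numbers name separate fish and nothing matches an MC-LR fish to a PBS fish. No test between groups was run on the members. The 19 members with at most 3 reads in the exposed livers are limited by counting.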
